A study of Mus musculus with 6 samples.

Results

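Transcript levels and open chromatin were examined for 10 transcription factor genes of the cardiac mesenchyme, namely Tcf21, Gata4, Gata6, Tbx20, Hand2, Tbx5, Tbx18, Wt1, Meox1 and Scx. They were taken by gene symbol from a table of 25746 genes, and all 10 had a row. The samples were mouse cardiac fibroblasts, either with a knockout (KO) of Acta2, which encodes the α-actin of smooth muscle, or wild type (WT). RNA-seq covered 2 KO and 2 WT libraries, and ATAC-seq, which marks open chromatin by transposase insertion, covered 1 KO and 1 WT library, 6 samples in all. For both assays the labels describe KO fibroblasts from Acta2fl/fl mice and WT fibroblasts, which were transduced with Adeno-Cre and given TGFβ for 2 days. They also describe in vivo work, without saying which source fed which library. There, MerCreMer was induced with tamoxifen at 75 mg/kg/day for 5 days, beginning at 6 weeks of age. Infarction followed at 9 weeks, and a second tamoxifen course ran from 1 day before to 5 days after it, after which eGFP+ cells of the Tcf21 lineage were sorted. The labels do not say where MerCreMer was inserted or whether both genotypes carried it. They do not say that replicates came from separate animals or cultures, so the p-values reflect the variation among these libraries alone, which may be technical.

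These factors belong to a small number of DNA-binding families. The bHLH proteins TCF21, HAND2 and SCX pair with E proteins to bind E-boxes, and ID proteins compete for those partners. GATA4 and GATA6 are zinc finger proteins that bind GATA motifs with FOG cofactors, TBX5, TBX18 and TBX20 carry a T-box domain, WT1 is a zinc finger protein of the epicardium, and MEOX1 is a homeobox protein. In mouse heart development TCF21 is needed for fibroblasts to arise from the epicardium, while GATA4, HAND2 and TBX5 are best known from cardiomyocyte development and from the cocktails that reprogramme fibroblasts towards muscle.

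Acta2, the targeted gene, was low in both libraries labelled KO. It had 2921.15 and 2909.21 estimated counts in the KO libraries, against 18230 and 19889.62 in the WT libraries. The KO libraries held 11370115 and 10864365 estimated counts, against 8429166 and 9096811 in the WT libraries. Fibroblast markers were abundant in every library, with a summed level of 3270 and 3290 CPM (counts scaled to library size) in KO, against 4558 and 4478 CPM in WT, over 9 markers, of which 1 was higher and 7 were lower in KO. Macrophage and leukocyte markers summed to 175.0 and 175.3 CPM in KO, against 101.0 and 97.4 CPM in WT, with 5 of 7 tested markers higher, none lower, and Fcgr1 at 0 in every library. Endothelial markers summed to 144 and 157 CPM in KO, against 115 and 110 CPM in WT, with 7 of 9 tested markers higher and 1 lower. Pericyte and smooth muscle markers summed to 55.6 and 59.4 CPM in KO, against 52.6 and 53.3 CPM in WT, with 2 of 6 tested markers higher and 3 lower. Cardiomyocyte markers summed to 8.06 and 6.17 CPM in KO, against 8.63 and 9.51 CPM in WT, with 0 of 2 tested markers higher and 1 lower. Among the untested markers, Actc1, Tnni3 and Ryr2 lay higher in both KO libraries than in both WT libraries, on at most 8 counts. Myh6 and Myl2 overlapped between the genotypes, and Pln, Nppa and Myl3 were at 0 in every library. In such bulk samples, fewer cells of a type and less RNA per cell cannot be told apart. The part of these marker differences in the changes described below was not tested.

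Of the 10 factors, 4 rose in KO (Gata4, Meox1, Hand2 and Tbx18), 2 fell (Tcf21 and Wt1), 3 did not pass the test (Gata6, Tbx20 and Tbx5) and 1, Scx, had too few counts to be tested. A gene was called when its Benjamini-Hochberg adjusted p was under 0.05 in edgeR's quasi-likelihood test over 12192 genes. By that rule 35.7% of all tested genes were called, 18.3% higher and 17.4% lower in KO, so calls were common in this comparison. The median log2 fold change of the 9 tested factors, KO over WT, was 0.21, against 0.00 over all tested genes, whose 5th and 95th percentiles were -0.68 and 0.82. Only Gata4 lay above and only Tcf21 and Wt1 lay below that range among the 9. In 6 of the 9 tested factors both KO libraries lay above both WT libraries and in 2 both lay below, where 34.3% and 32.8% of all tested genes did so. Tbx20 was the factor whose genotypes overlapped.

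**Figure D1:**
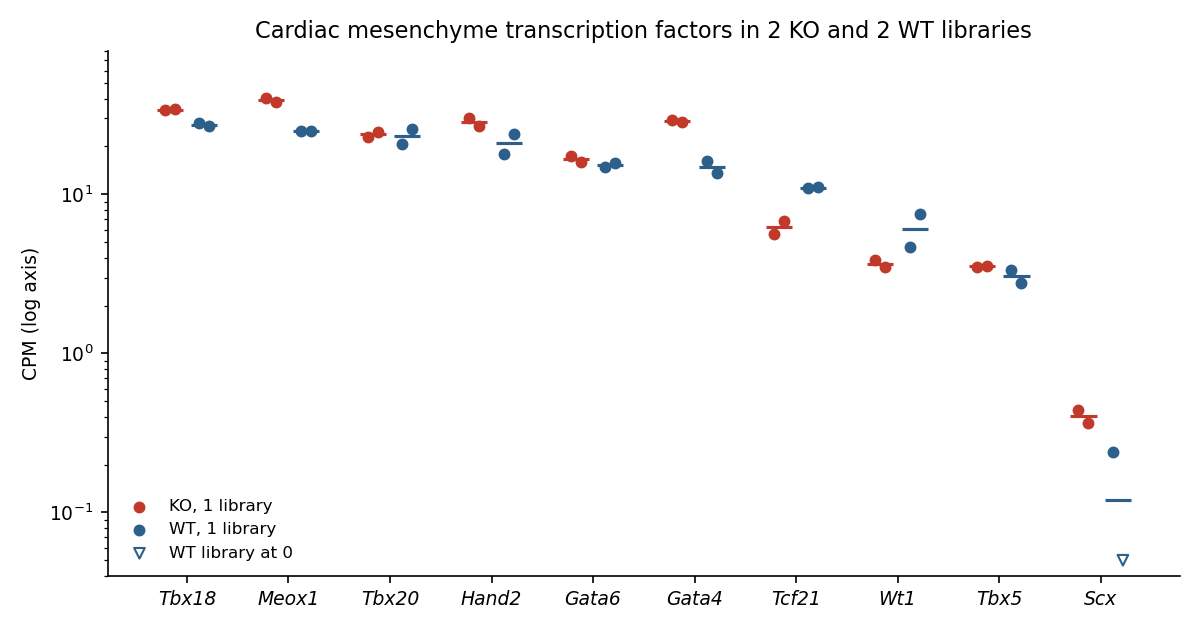
Level of each factor in CPM on a log axis, with a point for each library, KO left of WT, a bar at the mean of 2 libraries and an open triangle for the WT library in which Scx was at 0. Gata4 and Meox1 stand higher in both KO libraries, Tcf21 and Wt1 stand lower, and the Tbx20 libraries overlap.

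**Figure D2:**
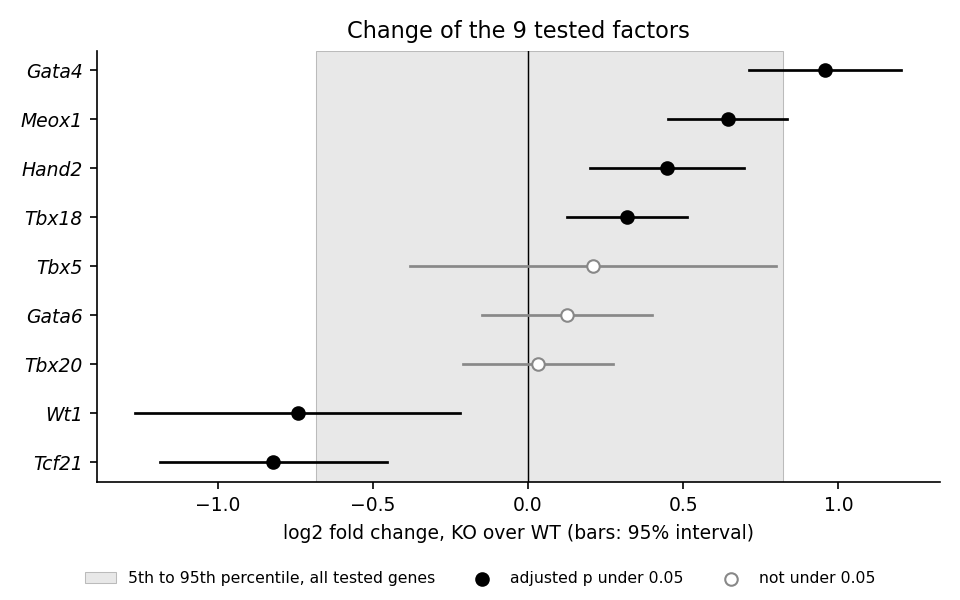
Log2 fold change of the 9 tested factors, KO over WT, with 95% intervals from the edgeR fit; filled points passed the adjusted p of 0.05 and the grey band spans the 5th to 95th percentile of all tested genes, -0.68 to 0.82. Gata4 is the highest at 0.96 and Tcf21 the lowest at -0.82.

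To compare the factors with each other, counts were divided by the merged length of all annotated exons and scaled to a fixed total (TPM). The order depends on that length, which was 11997 bp for Tbx20 and 2351 bp for Hand2. Meox1 had the highest TPM level in both genotypes, 48.9 ± 1.77 in KO and 30.7 ± 0.314 in WT (SD, n = 2 each). Hand2 came next, at 34.0 ± 2.65 TPM in KO and 24.4 ± 5.09 TPM in WT. Gata4 and Tbx18 followed in KO, at 20.6 ± 0.147 and 20.2 ± 0.401 TPM, while in WT it was Tbx18 and Tcf21, at 15.9 ± 0.347 and 12.8 ± 0.276 TPM, that stood above Gata4 at 10.4 ± 1.15 TPM. In KO, Tcf21 at 7.40 ± 1.10 TPM overlapped Gata6 at 7.18 ± 0.360 TPM. The lowest level in both genotypes was that of Scx, 0.558 ± 0.0674 TPM in KO and 0.162 ± 0.229 TPM in WT. Apart from the pair of Tcf21 and Gata6 in KO, the libraries of neighbouring factors in this order did not overlap. Gata4 and Tbx18 were nearly level in KO, with the lower Gata4 library at 20.53 TPM and the higher Tbx18 library at 20.49 TPM.

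The ATAC-seq data were lists of peaks that the authors called separately in each library, 121748 in KO and 123935 in WT. Each peak carries the authors' fold enrichment, the signal at its summit over the background of its own library. Within 50 kb of the bodies of the 10 genes there were 153 KO and 161 WT peaks. Of these, 28 KO peaks overlapped no WT peak and 34 WT peaks overlapped no KO peak, where 23.7% of all KO peaks and 24.4% of all WT peaks were unshared. Most unshared peaks were weak: 7 KO and 4 WT peaks near the factors had a fold enrichment of at least 5, and over the genome 8.1% of KO peaks and 5.12% of WT peaks of that height were unshared. All peaks of that height near the factors were not counted, so the 7 and 4 cannot be read against these shares. With 1 library per genotype no difference in peaks could be tested. Neighbouring genes were listed only if they overlapped a factor or started within 50 kb of its start. A distal peak may therefore belong to another gene.

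All 10 factors had a peak within 1 kb of the start site in both lists, as did 92.8% of 12185 tested genes. The highest promoter peak had a larger fold enrichment in KO at 9 factors. Higher values in KO were usual, with a median KO over WT ratio of 1.13 over 11312 genes with a peak in both lists and 5th and 95th percentiles of 0.819 and 1.54. The ratio was 1.66 at Tcf21, 1.55 at Meox1, 1.42 at Tbx20, 1.39 at both Gata4 and Hand2, 1.25 at Tbx18, 1.23 at Wt1, 1.16 at Gata6, 1.09 at Scx and 0.880 at Tbx5. If 1 step of the fold column stands for 1 fragment, the exact 95% binomial interval of the ratio ran from 1.06 to 2.65 at Tcf21, from 0.707 to 3.53 at Meox1 and from 0.433 to 1.77 at Tbx5, and covers counting error only. Each of the 10 intervals held the median of all genes, and the interval of Tcf21 alone did not hold 1.

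**Figure D3:**
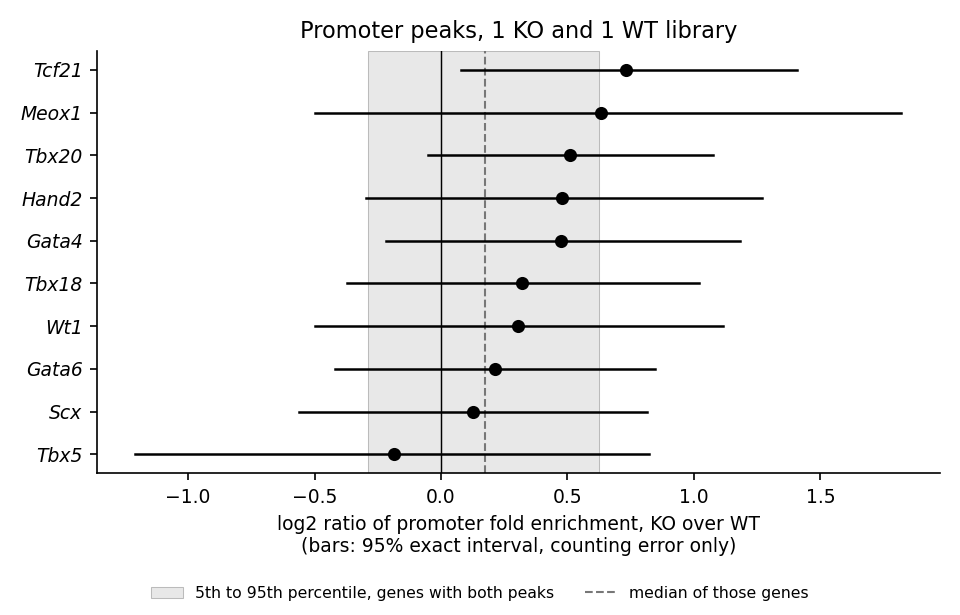
Log2 ratio of the highest promoter fold enrichment, KO over WT, with exact 95% intervals for counting error only; the grey band and dashed line give the 5th to 95th percentile and the median of 11312 genes with a promoter peak in both lists. Tcf21 is highest at 0.73 and Tbx5 lowest at -0.19, and every interval reaches the dashed line.

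Overlapping peaks showed the same lean over the whole genome, since 67.6% of WT peaks with a KO partner had a partner of higher fold enrichment. Around the 10 factors this held for 94 of 127 WT peaks. It held for 7 of 7 at Tcf21, 8 of 8 at Hand2, 3 of 3 at Tbx18, 22 of 27 at Gata4, 12 of 15 at Meox1, 7 of 9 at Tbx20, 11 of 16 at Gata6, 15 of 23 at Scx, 3 of 6 at Tbx5 and 6 of 13 at Wt1. Several WT peaks can share a KO partner, so these counts are not independent. Each WT peak was set against the highest of its KO partners, a rule that can raise the share higher in KO. Over the 9 tested factors the RNA log2 fold change and the log2 promoter ratio had Pearson's r of -0.08 and Spearman's rho of -0.02, and over 11312 genes r was 0.06 and rho 0.05, given as descriptions across genes of the same libraries. Tcf21 and Gata4 both had promoter ratios above 1, while the Tcf21 transcript fell and the Gata4 transcript rose.

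Tcf21 fell. The gene (ENSMUSG00000045680) occupies 22817281 to 22820174 of chromosome 10, minus strand, in mm10, the build of all coordinates here. It had 5.61 and 6.84 CPM in KO, from 64 and 75 counts, against 10.9 and 11.1 CPM in WT, from 91 and 100 counts. Both KO libraries lay below both WT libraries. The KO level was 56.6% of WT, and its log2 fold change was -0.82 (SE 0.178, edgeR adjusted p = 6.58e-04). The change ran from -0.97 to -0.69 when each library was left out in turn. Tcf21 was no longer called once the relative spread between replicates, the biological coefficient of variation (BCV), was set to 0.2. In the same libraries 7 of 9 fibroblast markers fell, and the median log2 fold change of the 9 was -0.46.

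The bases just before the Tcf21 start are shown because the peak over them had the largest promoter ratio of the 10 factors by highest fold enrichment, although the transcript fell. They are chr10:22820175-22820393 of GRCm38.p6, read 5′ to 3′ on the minus strand from the RefSeq promoter table and kept to the bases that precede both the RefSeq and the GENCODE start.
Tcf21 promoter: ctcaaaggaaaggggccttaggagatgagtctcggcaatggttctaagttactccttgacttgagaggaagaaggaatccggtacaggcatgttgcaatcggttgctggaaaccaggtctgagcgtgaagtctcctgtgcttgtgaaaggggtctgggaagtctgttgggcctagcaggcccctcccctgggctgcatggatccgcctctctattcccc
The whole stretch lay under a peak in both lists. The peak had a fold enrichment of 22.5 in KO, against 13.6 in WT, and this ratio was higher than in 97.8% of genes with both peaks. By fold enrichment times width the Tcf21 ratio was 1.86, below those of Meox1 at 4.16 and Scx at 2.17. None of the searched motifs occurred in the printed bases. A GATA match lay 31 bases before the RefSeq start, in bases not printed here.

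The rest of the Tcf21 locus leaned the same way. A peak in the gene's exon had a fold enrichment of 15.7 in KO, with its summit 2401 bp past the start site, against 6.98 in WT, with its summit 2366 bp past it. Downstream, a single KO peak of 5041 bp with a fold enrichment of 12.8 spanned 3 WT peaks with fold enrichments of 9.86, 8.63 and 4.11. Upstream, paired peaks had fold enrichments of 5.95 in KO, 1796 bp before the start site, and 4.52 in WT, 1801 bp before it. A KO peak 23305 bp upstream, with a fold enrichment of 5.95, had no WT peak over it. Its 151 bases around the summit, chr10:22843404-22843554 on the plus strand, are shown as the sole unshared peak at this locus and held none of the searched motifs.
Tcf21 upstream KO peak: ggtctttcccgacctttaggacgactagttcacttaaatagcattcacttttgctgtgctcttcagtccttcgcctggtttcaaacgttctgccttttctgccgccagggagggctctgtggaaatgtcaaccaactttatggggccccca

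**Figure D4:**
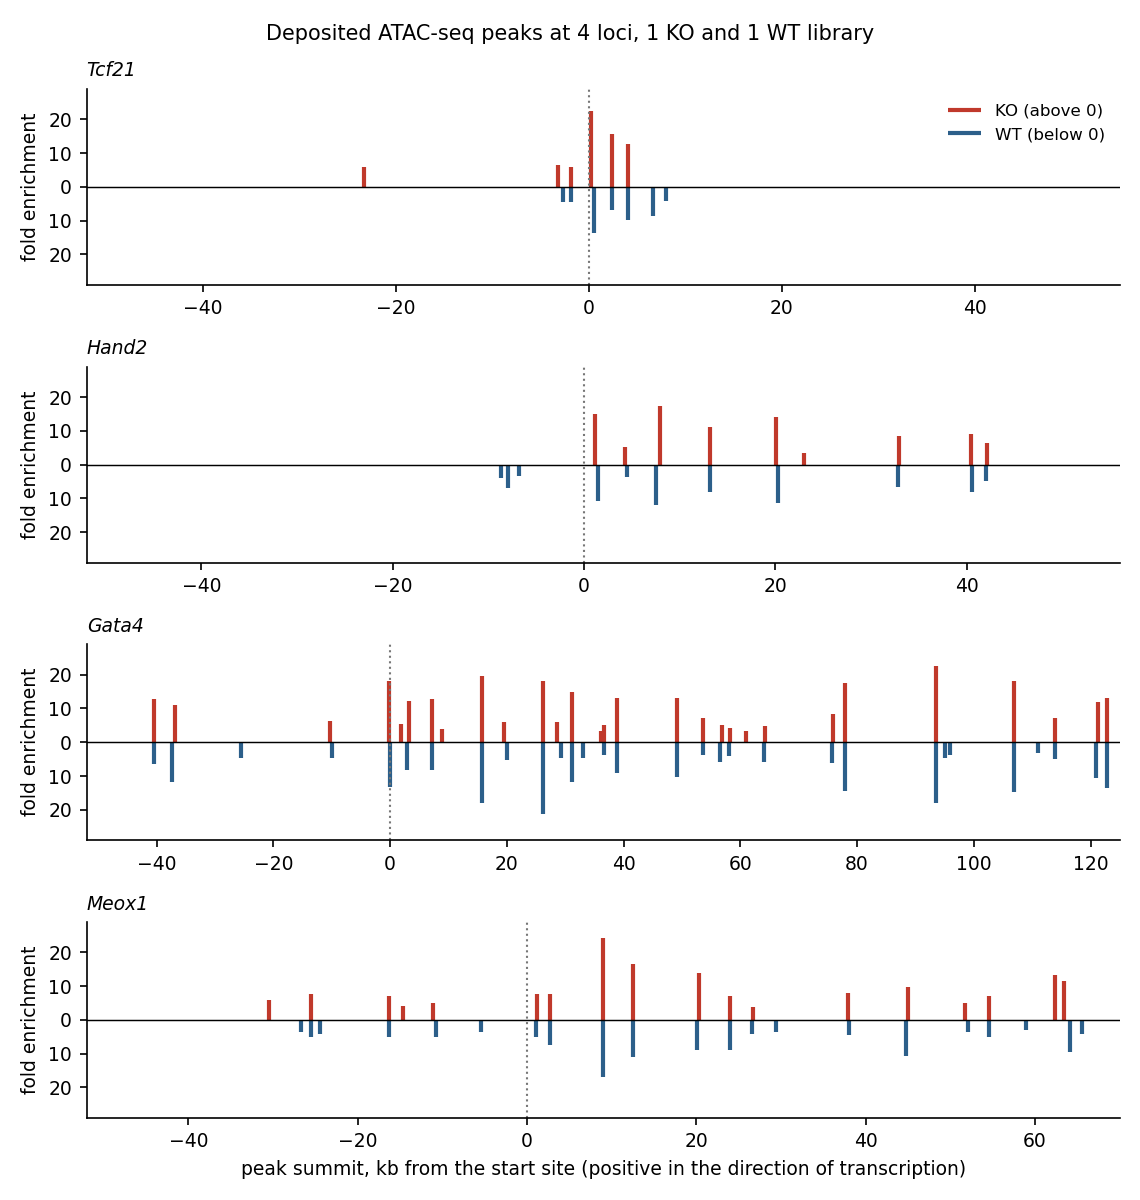
Summits of the deposited peaks at Tcf21, Hand2, Gata4 and Meox1 by distance from the start site in kb, with the authors' fold enrichment upwards for the KO library and downwards for the WT library. The Tcf21 promoter peak reaches 22.5 in KO and 13.6 in WT, and the Meox1 intronic peak 24.2 in KO and 16.8 in WT.

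Hand2 rose, with calls that depended on the setting. This bHLH gene patterns the ventricles and limb buds and is expressed in epicardium and cardiac fibroblasts, and occupies 57320983 to 57324633 of chromosome 8, plus strand (ENSMUSG00000038193). It had 30.4 and 26.9 CPM in KO, against 18.04 and 23.9 CPM in WT. Both KO libraries lay above both WT libraries, but the WT pair was spread. The log2 fold change was 0.45 (SE 0.120, adjusted p = 0.00455 by edgeR), and it was 0.26 and no longer called without WT replicate 1. Both DESeq2 and an assumed BCV of 0.1 or 0.2 also ended the call. The antisense gene Hand2os1 shares 461 exon bases with Hand2, 19.6% of its exon length, and reads of the pair cannot be told apart without strand.

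The Hand2 promoter is shown because it held more of the searched motifs than the other promoters that were available. It is chr8:57320733-57320982 of GRCm38.p6 on the plus strand, from the RefSeq promoter table, with an E-box, a GATA match and an overlapping homeobox and GATA match in capitals.
Hand2 promoter: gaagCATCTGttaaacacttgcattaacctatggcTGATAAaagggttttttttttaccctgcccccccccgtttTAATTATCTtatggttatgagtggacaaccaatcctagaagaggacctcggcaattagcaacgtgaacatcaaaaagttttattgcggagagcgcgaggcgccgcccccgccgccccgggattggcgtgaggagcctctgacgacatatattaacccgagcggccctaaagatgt
The E-box CATCTG began 246 bases before the start, the GATA match TGATAA 215 bases before it and the homeobox match TAATTA 175 bases before it. The last overlapped a GATA match on the other strand that began 172 bases before the start. The peak over this promoter had a fold enrichment of 14.9 in KO, against 10.7 in WT.

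Outside the promoter, the highest Hand2 peak lay downstream, with a fold enrichment of 17.4 in KO, 7890 bp past the start site, against 11.9 in WT, 7571 bp past it. On the upstream side 3 WT peaks had no KO peak over them. The highest of these had a fold enrichment of 6.98, 7956 bp before the start site, inside the body of Hand2os1 but outside its exons. Its 151 bases around the summit, chr8:57312952-57313102 on the plus strand, are shown as the highest unshared WT peak near any of the factors, with a pair of overlapping TEAD matches in capitals.
Hand2 upstream WT peak: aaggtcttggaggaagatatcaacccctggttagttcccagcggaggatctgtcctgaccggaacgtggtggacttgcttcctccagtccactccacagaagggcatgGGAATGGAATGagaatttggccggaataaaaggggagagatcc

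Scx, the bHLH gene of tendon progenitors and heart valves, was close to the detection limit. Its gene (ENSMUSG00000034161) occupies 76457452 to 76459458 of chromosome 15, plus strand, inside the body of Bop1 on the other strand, with 0 exon bases shared. It had 5 and 4 counts in KO, against 2 and 0 in WT, and 3 counts correspond to 0.263 and 0.274 CPM in KO, against 0.360 and 0.332 CPM in WT. No difference was detectable at this depth. Its neighbours were well measured: Bop1, a ribosome biogenesis gene, fell by 0.29 on the log2 scale (adjusted p = 0.00151 by edgeR), and Hsf1, the heat shock regulator, had a log2 fold change of -0.15 (adjusted p = 0.161 by edgeR). The highest peak near any of the 10 factors lay here, with a fold enrichment of 35.7 in KO, 4080 bp past the Scx start, against 26.3 in WT, 4104 bp past it. At about the place of the Hsf1 and Bop1 starts, 19970 and 19825 bp from that of Scx, a peak had 25.9 in KO and 22.6 in WT. The Scx promoter peak had a fold enrichment of 16.6 in KO and 15.2 in WT, so low transcript counts went with open chromatin in both genotypes. By fold enrichment times width its KO over WT ratio was 2.17 in place of 1.09, with widths of 7527 bp in KO and 3792 bp in WT. A KO peak 2317 bp past the start with a fold enrichment of 5.53 had no WT peak over it.

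Of 11 tested bHLH relatives and dimer partners, 2 rose and 4 fell, with a median log2 fold change of -0.13. Id2, an inhibitor of bHLH dimers, rose by 1.01 on the log2 scale (SE 0.068, adjusted p = 2.75e-12 by edgeR), with 85.1 and 88.0 CPM in KO, against 42.3 and 43.8 CPM in WT. Id3 rose by 0.46 on the log2 scale, while Id1, of the same inhibitor family, fell by 0.38. Msc, a close relative of Tcf21, fell by 0.95 on the log2 scale and Twist2, a mesenchymal bHLH repressor, fell by 0.55. Among the E proteins that these factors pair with, Tcf4 fell by 0.33 on that scale, while Tcf3 and Tcf12 had log2 fold changes of 0.23 and 0.03 and were not called. The call of Msc ended without KO replicate 1, at -0.70, and without WT replicate 2, at -0.92, and that of Id1 without WT replicate 1, at -0.33.

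Of 6 tested tendon genes known as downstream of SCX in other tissues, 5 fell and 0 rose, with a median of -0.64. Fmod, a collagen-binding proteoglycan, fell by 1.25, the fibrillar collagen gene Col11a1 by 0.99 and the proteoglycan gene Dcn by 0.83, while Col1a2 fell by 0.46 and Col1a1 by 0.15, all on the log2 scale. Dcn, Col1a1 and Col1a2 are also on the fibroblast marker list. The call of Fmod ended without WT replicate 2, at -0.97. Mkx, a homeobox gene of tendon, had a log2 fold change of 0.11 and was not called, Tnmd had 0 and 4 counts in KO, against 0 and 1 in WT, and Kera and Chad were at 0 in every library.

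Gata4 rose, with the largest log2 fold change of the 9 tested factors. The gene (ENSMUSG00000021944) occupies 63198922 to 63271692 of chromosome 14, minus strand. It had 29.2 and 28.6 CPM in KO, against 16.2 and 13.6 CPM in WT, and both KO libraries lay above both WT libraries. The KO level was 1.94-fold that of WT (95% interval 1.64 to 2.30), or 0.96 on the log2 scale (SE 0.120, edgeR adjusted p = 3.28e-07). The log2 value ran from 0.83 to 1.08 with each library left out in turn. The call ended when a BCV of 0.2 was assumed. GATA4 is also a factor of cardiomyocytes and endocardium. In the same libraries 7 of 9 tested endothelial markers were higher in KO and 1 was lower, while 0 of 2 tested cardiomyocyte markers were higher and 1 was lower. The cardiomyocyte markers Actc1, Tnni3 and Ryr2, with too few counts to be tested, lay higher in both KO libraries. The part of these markers in the Gata4 difference was not tested.

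The Gata4 locus had 29 peaks in KO, as many as Scx, and 30 in WT, more than any other factor. The promoter peak had a fold enrichment of 18.3 in KO, against 13.1 in WT. The highest peaks differed between the lists: in KO it lay downstream of the gene, 93520 bp past the start site, with 22.5, against 18.1 for the WT peak there. That site is farther from the start than neighbouring genes were sought, so whether it belongs to another gene was not tested. In WT the highest peak lay 26129 bp past the start with 21.4, against 18.3 for the KO peak there, one of 5 of 27 overlapping peaks that were not higher in KO. An upstream pair had fold enrichments of 12.8 in KO, 40464 bp before the start, and 6.57 in WT, 40473 bp before it. No unshared peak at Gata4 reached a fold enrichment of 5.

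Gata6, a relative with overlapping roles in heart formation and a known factor of peritoneal macrophages in mouse, did not pass the test. From 11052064 to 11085635 of chromosome 18, plus strand (ENSMUSG00000005836), it had 17.4 and 16.1 CPM in KO, against 14.9 and 15.8 CPM in WT. The KO libraries lay just above the WT libraries, with a log2 fold change of 0.13 (95% interval -0.15 to 0.40, adjusted p = 0.496 by edgeR). Its promoter peak, the widest near the factors, covered 8532 bp in KO with a fold enrichment of 20.0, against 7732 bp in WT with 17.3. Within the gene, 2 WT peaks of fold enrichment 6.16 and 6.57, at 7111 and 24594 bp past the start, had no KO peak over them. The antisense gene 1010001N08Rik shares 93 exon bases with Gata6, 1.43% of its exon length.

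Of 4 tested GATA relatives and FOG partners, 1 rose and 0 fell. The cofactor gene Zfpm1 (FOG1) rose by 0.39 on the log2 scale (adjusted p = 0.0405 by edgeR), which became 0.33 to 0.46 without any one of the 4 libraries, and the call ended each time. Zfpm2 (FOG2) had a log2 fold change of -0.21, Gata3 of -0.05 and Gata2 of 0.79, and none of these was called. Gata5 had 4 and 2 counts in KO, against 1 and 0 in WT, and Gata1 was at 0 throughout.

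Tbx18, a marker of epicardium and sinus venosus, rose. The gene (ENSMUSG00000032419), at 87702800 to 87731260 of chromosome 9, minus strand, had 33.9 and 34.5 CPM in KO, against 28.1 and 26.7 CPM in WT. Both KO libraries lay above both WT libraries, and the KO level was 1.25-fold that of WT. The log2 fold change was 0.32 (SE 0.0939, adjusted p = 0.00885 by edgeR). The call ended without WT replicate 2, at a log2 fold change of 0.28. DESeq2 and an assumed BCV of 0.1 or 0.2 ended it as well. The overlapping unclassified gene D030062O11Rik shares 970 exon bases with Tbx18, 20.6% of its exon length, and had 3.38 and 8.48 counts in KO, against 12.1 and 4.27 in WT, and another unclassified gene nearby, Gm37374, had 1 and 0 counts in KO, against 0 and 0 in WT.

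The Tbx18 promoter is shown because it lay under one of 3 peaks shared by the lists, all higher in KO. It is chr9:87731261-87731510 of GRCm38.p6, read on the minus strand from the RefSeq promoter table, with an E-box (CATCTG on the other strand), 168 bases before the start, in capitals.
Tbx18 promoter: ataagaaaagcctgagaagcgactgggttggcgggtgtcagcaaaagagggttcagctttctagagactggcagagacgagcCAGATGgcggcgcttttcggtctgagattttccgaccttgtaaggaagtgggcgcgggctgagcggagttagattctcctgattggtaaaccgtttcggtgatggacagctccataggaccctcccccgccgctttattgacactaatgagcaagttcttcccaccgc
The peak over it had a fold enrichment of 17.4 in KO, against 14.0 in WT. A peak with its summit 8108 bp before the start had 14.9 in KO, against 9.86 in WT, 8591 bp before it. Unshared peaks at Tbx18 stayed under a fold enrichment of 5.

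Tbx20, needed for heart chamber growth and also expressed in cardiac fibroblasts, showed no difference beyond its spread. The gene (ENSMUSG00000031965), also on chromosome 9 at 24718138 to 24774303, minus strand, had 22.9 and 24.7 CPM in KO, against 20.6 and 25.8 CPM in WT, so that both KO values lay between the WT values. The log2 fold change was 0.03 (95% interval -0.21 to 0.27, adjusted p = 0.862 by edgeR) and was negative without KO replicate 2, at -0.02, and without WT replicate 1, at -0.12. Its promoter peak was the highest promoter peak of the 10, at 28.1 in KO, against 19.7 in WT. By the sum of fold enrichment times width this direction turned, with a log2 ratio of -0.63, since the WT peak was 4173 bp wide and the KO peak 1896 bp. That WT peak also overlapped another KO peak, 2760 bp wide with a fold enrichment of 12.8. This KO peak lay more than 1 kb from the start and was not in the sum, so the widths do not compare the same stretch. A KO peak 16686 bp before the start, with 6.38, had no WT peak over it.

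Tbx5, the T-box gene of the atria and forelimbs, was low. At 119832668 to 119885219 of chromosome 5, plus strand (ENSMUSG00000018263), it had 40 and 39 counts in KO, against 28 and 25 in WT, or 3.51 and 3.56 CPM against 3.36 and 2.77 CPM. The log2 fold change was 0.21 with a wide 95% interval of -0.38 to 0.80 (adjusted p = 0.609 by edgeR). Its promoter ratio does not compare one site, since the highest KO peak within 1 kb of the start had its summit 1372 bp before it, with a fold enrichment of 7.23, and the highest such WT peak had its summit 2562 bp past it, at 8.22. The KO peak at the place of that WT peak had 8.08. A WT peak with its summit 261 bp before the start, at 5.34, had no KO peak over it, and within the gene 2 KO peaks of 6.38, at 12605 and 44827 bp past the start, had no WT peak over them.

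Of 5 tested other T-box genes, 1 rose and 0 fell. Tbx2, a T-box repressor of the atrioventricular canal, had 31 and 23 counts in KO, against 5 and 7 in WT, so it rose, by 1.79 on the log2 scale (SE 0.452, adjusted p = 0.00285 by edgeR). Its call ended with DESeq2 and without KO replicate 1, at 1.58. Tbx3, its close relative, had a log2 fold change of -0.19 and was not called. Tbx4, Tbx21, Tbr1, Tbx6 and Tbx22 were at 0 in every library.

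Wt1 fell, on few counts. This epicardial zinc finger gene (ENSMUSG00000016458) occupies 105126529 to 105173616 of chromosome 2, plus strand. It had 44 and 38 counts in KO, against 39 and 68 in WT, or 3.86 and 3.47 CPM in KO, against 4.68 and 7.52 CPM in WT. Both KO libraries lay below both WT libraries, but the WT libraries differed from each other more than the nearer of them did from KO. The log2 fold change was -0.74 (SE 0.255, adjusted p = 0.0242 by edgeR), and without WT replicate 2 it was -0.35 and not called. Leaving out KO replicate 2 gave -0.67 and ended the call too, as did DESeq2 and an assumed BCV of 0.2. The neighbouring gene Gm11060 was at 0 in every library.

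Open chromatin at Wt1 did not lean one way. The promoter peak had a fold enrichment of 13.2 in KO, against 10.7 in WT, while the highest WT peak lay over an exon 36246 bp past the start, at 11.5, against 10.6 for the KO peak there. The KO partner was higher at 6 of 13 overlapping WT peaks and not higher at 7. A KO peak 82756 bp past the start, at 5.53, had no WT peak over it.

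Of 12 tested epicardial genes, 2 rose and 5 fell, with a median of -0.23. On the log2 scale Sema3d, an epicardial guidance cue, fell by 1.01 and Upk3b, a mesothelial membrane gene, fell by 0.85, and Msln, Aldh1a1 and Upk1b fell by 0.52, 0.34 and 0.20. Aldh1a2, which makes retinoic acid in the epicardium, rose by 0.93 and the keratin gene Krt19 rose by 0.49 on the same scale. Without KO replicate 1 the call of Msln ended, at -0.33, and without KO replicate 2 that of Upk1b, at -0.18. The summed level of the 8 epicardial and mesothelial markers was 274.8 and 265.9 CPM in KO, against 273.3 and 266.8 CPM in WT, with 1 of 6 tested markers higher and 3 lower.

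Meox1, which had the highest TPM level of the 10, rose. In mouse hearts it is known as a TGF-β-induced regulator of fibroblast activation with a distal element downstream of the gene. The gene (ENSMUSG00000001493), at 101877510 to 101894374 of chromosome 11, minus strand, had 40.3 and 37.9 CPM in KO, against 25.06 and 24.997 CPM in WT. The replicates of each genotype were close and the genotypes did not overlap. The KO level was 1.56-fold that of WT (95% interval 1.37 to 1.78), or 0.64 on the log2 scale (SE 0.0933, edgeR adjusted p = 3.57e-06). The log2 value ran from 0.59 to 0.69 with each library left out in turn. The call ended when a BCV of 0.2 was assumed.

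The highest Meox1 peak was not at the promoter, where the fold enrichment was 7.65 in KO and 4.93 in WT, but in an intron. There it was 24.2 in KO, with its summit 8960 bp past the start, against 16.8 in WT, with its summit 8949 bp past it. Its 151 bases around the KO summit, chr11:101885339-101885489 on the plus strand, are shown as the strongest site at this locus and held none of the searched motifs.
Meox1 intronic KO peak: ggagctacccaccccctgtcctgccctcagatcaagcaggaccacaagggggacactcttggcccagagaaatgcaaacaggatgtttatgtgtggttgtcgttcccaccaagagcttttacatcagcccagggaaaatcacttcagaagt
Downstream of the gene, KO peaks 62355 and 63454 bp past the start had 13.2 and 11.5, against 9.45 for a single WT peak of 2856 bp that overlapped both. By the sum of fold enrichment times width the log2 promoter ratio was 2.06, with widths of 2308 bp in KO and 861 bp in WT. A KO peak 30410 bp before the start, at 5.95, had no WT peak over it. Its 151 bases around the summit, chr11:101924709-101924859 on the plus strand, are shown with their GATA match on the other strand in capitals.
Meox1 upstream KO peak: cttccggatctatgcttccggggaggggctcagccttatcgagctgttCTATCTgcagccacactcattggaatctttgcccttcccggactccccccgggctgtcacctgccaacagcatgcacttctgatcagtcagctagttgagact

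Of 4 tested relatives of MEOX1, WT1 and the tendon factors, 0 were called in either direction by edgeR, 1 had an unadjusted p under 0.05 (Meox2, 0.0183), and 0 were called by DESeq2. Egr1 and Egr2, zinc finger relatives of WT1, had log2 fold changes of 0.06 and -0.02, and Meox2 had 9 and 10 counts in KO, against 12 and 21 in WT, with a log2 fold change of -1.15 (adjusted p = 0.0509 by edgeR).

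Of 27 tested other cardiac and mesenchymal transcription factors, 4 rose and 8 fell, with a median of -0.26. Srf, which drives actin and contractile genes, rose by 1.21 on the log2 scale (SE 0.217, adjusted p = 7.64e-05 by edgeR), with 8.24 and 9.31 CPM in KO, against 3.24 and 4.31 CPM in WT. Foxc1, Mef2d and Meis3 rose by 0.88, 0.53 and 0.42 on the log2 scale. Nr2f1, an orphan nuclear receptor, had 7 and 4 counts in KO, against 15 and 26 in WT, and fell by 2.23 on the log2 scale. Osr1, a marker of mesenchymal progenitors, fell by 0.86, and Prrx1, a mesenchymal homeobox factor, fell by 0.56 on that scale. The call of Foxc1 ended without KO replicate 1, KO replicate 2 or WT replicate 1, at 0.97, 0.77 and 0.52, that of Nr2f1 without WT replicate 2, at -1.85, and that of Meis3 without WT replicate 1, at 0.35. Without WT replicate 2 the value of Foxc1 was 1.39.

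Of 3 tested cardiomyocyte genes known to be driven by GATA4 and TBX5, 1 rose and 1 fell. On the log2 scale Nppb, a natriuretic peptide gene, rose by 0.52, and Tnnt2, cardiac troponin T, fell by 0.74. The call of Nppb ended without any one of the 4 libraries, at 0.43 to 0.60, and that of Tnnt2 without KO replicate 2, at -0.54, and without WT replicate 2, at -0.59. Myh6 had 0 and 0 counts in KO, against 1 and 0 in WT, and Nppa was at 0 throughout. Tnnt2 and Nppb were measurable, at 4.37 and 8.58 CPM on average in KO, against 7.28 and 6.00 CPM in WT.

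Among the genes of these related lists named here, DESeq2 left Id1, Msc, Fmod, Zfpm1, Tbx2, Upk1b, Foxc1, Mef2d, Meis3, Nppb and Tnnt2 uncalled. With an assumed BCV of 0.2 the calls that stood were those of Id2, Tbx2, Srf, Nr2f1, Col11a1 and Sema3d. Against the whole table, where 18.3% of tested genes rose and 17.4% fell, most of these lists are too short for a share to be read.

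**Figure D5:**
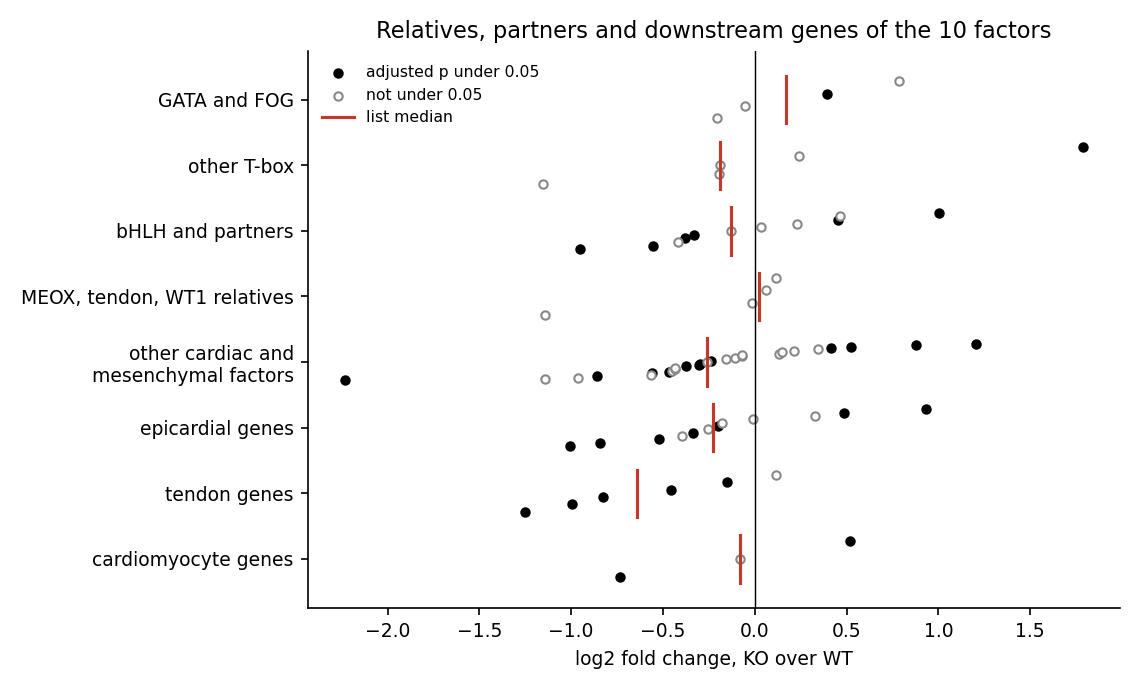
Log2 fold change, KO over WT, of each tested gene of the related lists; filled points passed the adjusted p of 0.05 and red bars give list medians. The tendon genes have the lowest median at -0.64, and Tbx2 at 1.79 and Nr2f1 at -2.23 are the extremes.

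For the promoters and peaks, 8 motifs were searched on both strands. They were the GATA motif in 4 spellings, namely AGATAA or TGATAA and also AGATAG or TGATAG, then the E-boxes CAGCTG and CATCTG, the T-box site AGGTGT, the homeobox site TAATTA, the WT1 site GCGTGGGNG, TEAD (GGAATG), AP-1 (TGANTCA) and the CArG box. Promoter sequences were found for 4 of the 10 factors, Tcf21, Tbx20, Hand2 and Tbx18. Over 250 bases before the start, GATA occurred in 2 of the 4 and in 26.5% of 32851 promoters, the E-boxes in 2 of the 4 and in 25.5%, and the homeobox site in 1 of the 4 and in 4.84%. None of the 4 held the T-box site, WT1, TEAD, AP-1 or CArG motif, which occurred in 11.8%, 1.65%, 12.6%, 6.75% and 1.47% of promoters. The Tbx20 promoter held none of the 8. In 151 bases around summits, GATA occurred in 19.8% of KO and 19.7% of WT peaks and TEAD in 10.5% of KO and 10.3% of WT peaks.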

How the data were processed

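The authors deposited estimated counts per gene for 4 RNA-seq libraries and a peak list for each of 2 ATAC-seq libraries. Per the labels' protocols, 150 bp paired reads were trimmed with Trim Galore 0.6 and assessed with FastQC, RNA-seq reads (from a low-input kit that is not described as stranded) were aligned to mm10 with STAR 2.5.3a, while ATAC-seq reads from 10000 cells per sample were aligned with Bowtie2 2.3, kept if unique and not duplicate or mitochondrial, and passed to MACS2 sample by sample. The counting program, the annotation, the MACS2 version and any shift of cut sites were not given in the sources used here. The labels also speak of TPM, but 10.8 to 12.2% of the deposited values are not whole and the totals differ between libraries, so they were taken as estimated counts and rounded, where whole counts had been planned for. Estimated counts divide reads between genes by a model. In the deposited peak lists, the fold enrichment is a ratio to each library's background, beside an integer score and −log10 p-values and q-values. The fold column moved in steps of 0.425 in the KO list and 0.411 in the WT list (every value within 0.05 of a step), and no other depth is known for these libraries.

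The test across genes was the quasi-likelihood fit of genotype in edgeR 4.0.16 (R 4.3.3), after filterByExpr with a minimum count of 10 and TMM scaling, with Benjamini-Hochberg adjustment over 12192 genes. CPM uses TMM-scaled totals, in which 1 count is 0.0876 to 0.120 CPM, and TPM uses GENCODE M21 exon lengths. Of 25746 genes, 25635 were found in GENCODE M21 by identifier and 25458 had identical coordinates. Promoter sequences come from the RefSeq table for GRCm38.p6, which is mm10, and summit windows from its genome. Peaks were shared at an overlap of at least 1 bp. Replicates of a genotype differed by more than sampling noise (chi-square per degree of freedom 1.95 in KO and 1.75 in WT). This does not show that they came from separate animals or cultures. All 4 libraries were kept.

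The 10 genes and the lists were chosen with earlier results of these data known. Named genes were Acta2, the 10 factors, up to 3 called genes per list by size of change (or the 2 most abundant in a list without calls), neighbours within 50 kb, and per factor the highest, the promoter and the unshared peaks of fold enrichment 5 or more. Genes and peaks named beyond that were chosen after their values were seen. The alternatives were RLE factors, library size only, no filter on low counts, assumed BCVs of 0.1 and 0.2, the replicate number as a block, DESeq2 1.42.0, leaving out each library, other windows, a −log10 q-value of at least 5, a reciprocal overlap of 50%, and other promoter measures.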

Additional observations from a re-analysis of the deposited data

How the results depend on the processing

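Scaling by RLE factors or library size, and the absence of a filter, kept the direction and the call of all 9 tested factors. Same-numbered replicates showed no shared shift (correlation of their deviations 0.0004 over 12192 genes). This cannot tell whether the samples were paired when they were prepared. With the replicate block 4408 genes, 4 factors higher and 2 lower were called. DESeq2 called 2058 genes, 2 factors higher and 1 lower (Gata4, Meox1 and Tcf21), and left Hand2, Tbx18 and Wt1 uncalled at 0.44, 0.31 and -0.75. The fitted BCV was 0.0311. At an assumed BCV of 0.1, 1780 genes and 2 factors higher and 2 lower were called, with Hand2 at 0.45 and Tbx18 at 0.32 uncalled. At 0.2, 398 genes were called and 0 factors higher and 0 lower, although 4 had an unadjusted p under 0.05; Tcf21 was at -0.82, Gata4 at 0.96, Hand2 at 0.45, Tbx18 at 0.32, Wt1 at -0.74 and Meox1 at 0.64. The cause of the lost calls was not tested.

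With each library left out in turn, 3392 to 3674 genes were called, 3 to 4 factors higher and 1 to 2 lower. Log2 fold changes ran from 0.83 to 1.08 for Gata4, 0.06 to 0.18 for Gata6, 0.26 to 0.67 for Hand2, 0.59 to 0.69 for Meox1, 0.28 to 0.35 for Tbx18, -0.12 to 0.20 for Tbx20, 0.07 to 0.35 for Tbx5, -0.97 to -0.69 for Tcf21 and -1.04 to -0.35 for Wt1. Tbx20 turned to -0.02 without KO replicate 2 and to -0.12 without WT replicate 1.

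Within 10 kb of the genes there were 89 KO and 97 WT peaks, 13 and 19 unshared; within 100 kb there were 248 and 252, 46 and 51 unshared. At a −log10 q-value of at least 5, 115 KO and 97 WT peaks remained, so that KO had more. The whole lists shifted the same way, with 89629 KO and 78016 WT peaks at that cut. Of the peaks near the factors, 11 KO and 6 WT peaks were unshared, where 11.2% of all KO and 7.38% of all WT peaks were. With a reciprocal overlap of 50%, 65 KO and 73 WT peaks were unshared, where 39.1% of all KO and 40.2% of all WT peaks were. By fold enrichment times width the log2 promoter ratio was -0.63 for Tbx20, -1.74 for Tbx5, 2.06 for Meox1 and 1.11 for Scx, and a 2 kb promoter changed none of the 10. Depth limits Scx, Wt1 and Tbx5 most, and each ATAC-seq genotype has 1 library.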
